A study of Bos grunniens with 18 samples.

Results

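The genes described here carry out antigen processing and presentation in the whole blood of yaks (Bos grunniens). They are the genes of the deposited table that its KEGG column places in the antigen processing and presentation pathway and not in protein processing in the endoplasmic reticulum, the lysosome or the proteasome. Each had 10 or more counts in at least 6 libraries, and CD4, CD8A, CD8B, HSPA8, HSP90AA1 and IFNG were left out. This gave 97 members of 20607 genes, of which 73 carried no symbol and are named by their identifiers. Of 129 genes in the pathway, 23 were also in one of the other pathways, 3 were left out by name and 6 had too few counts. The genes for CD8A and CD8B carried no symbol and were recognised by their KEGG entries, and keeping them would have given 99 members.

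RNA-seq measured the blood of adult cows, 4 to 8 years old, at 3 stages of reproduction, with 6 libraries a stage and 18 in all. Y-A libraries came from anestrus, those called Y-E from estrus, and those called Y-P from pregnancy. Each library came from whole blood taken into EDTA and mixed with TRIzol LS. In the study's methods, estrus was synchronised with a progesterone pessary, cloprostenol and GnRH, followed by timed insemination, so Y-E was a hormonally induced estrus and Y-P followed insemination. The labels number the libraries of each stage from 1 to 6, and the methods name 6 cows without saying that a number marks a cow.

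Class I molecules are made of a heavy chain and beta-2-microglobulin and show peptides from inside the cell to CD8 T cells. Their peptides are pumped into the endoplasmic reticulum by the transporter TAP1 and TAP2 and loaded with the help of tapasin (TAPBP). Class II molecules are pairs of an alpha and a beta chain on B cells, monocytes and dendritic cells, which show peptides from outside the cell to CD4 T cells. CD74, the invariant chain, holds the class II groove until HLA-DM exchanges it for a peptide, and HLA-DO restrains HLA-DM. The heavy chain and class II chain genes are among the most variable between individuals of any mammalian genes.

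Total counts ran from 30247267 to 48401076 a library, with a median of 33920959.5. The library Y-E replicate 6 stood apart: 8.36% of its counts fell on 6 hemoglobin genes, against 0.0899% to 0.713% in the other Y-E libraries. The stages differed in this share, which was 3.10% to 16.7% in Y-A and 0.0272% to 0.376% in Y-P, and Y-E replicate 6 lay in the range of Y-A, so results that rest on Y-E are also given without it. Counts were scaled by the trimmed mean of M-values, and levels below in CPM are counts relative to the scaled library size. In a bulk blood sample, fewer cells of a type and less RNA per cell cannot be told apart. The 3 comparisons share libraries, so a library that is high or low in one stage enters 2 of them. Where 3 values are given for the 3 comparisons, they stand in the order Y-E vs Y-A, then Y-P vs Y-A, then Y-P vs Y-E.

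By role, the members held 12 genes with the class I heavy chain entry, 5 class I partners, 14 class II chains, CD74, the lysosomal thiol reductase IFI30, 8 factors that bind or control class II promoters, the cytokine TNF, the chaperone HSPA4, 13 natural killer cell receptor genes and 41 T cell receptor segments. Of all members, 29 lay on chromosome 24, which holds the major histocompatibility complex (MHC). The class I heavy chains of the MHC were 9 genes there. The other 3 were HFE, a regulator of iron uptake, FCGRT, the neonatal Fc receptor that recycles IgG and albumin, and ENSBGRG00000014048 on chromosome 8. The class II chains lay in 2 groups of 7 on chromosome 24, a first from HLA-DRA onwards (8922781 to 9105864) and a second from HLA-DOA onwards (29461107 to 29757329), in the coordinates of the deposited table (genome version v101).

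Per length, in FPKM, a few members were far above the rest. The mean level over the 18 libraries was 3015 FPKM for ENSBGRG00000009951 and 1902 FPKM for ENSBGRG00000009835, both with the beta-2-microglobulin entry and overlapping on the same strand of chromosome 11, so that the division of reads between them is uncertain. CD74 had a mean level of 2523 FPKM, the class I heavy chain ENSBGRG00000020812 of 2050 FPKM and HLA-DRA, the alpha chain of the DR molecule, of 1411 FPKM. The next class II chain, ENSBGRG00000019125, had 561 FPKM. The second and the fourth class I heavy chains by level, ENSBGRG00000012639 with 437 FPKM and ENSBGRG00000022538 with 210 FPKM, were well below the first. Among the 5 most abundant genes, neighbours in this order overlapped. In Y-E the libraries of ENSBGRG00000020812 ran from 1567 to 2358 FPKM, inside the range of CD74, 1304 to 2714 FPKM.

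At the other end, HFE had a mean level of 0.761 FPKM, and the class II chains ENSBGRG00000019049, ENSBGRG00000022408 and ENSBGRG00000018854 had mean levels of 0.847, 0.630 and 0.337 FPKM. The factors of the class II promoter spanned 4.09 to 43.2 FPKM. The T cell receptor segments had a median level of 2.54 FPKM, with ENSBGRG00000008096 of the alpha chain the highest of them at 382 FPKM. The natural killer receptor genes had a median level of 1.25 FPKM and none was above 15.0 FPKM.

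**Figure D1:**
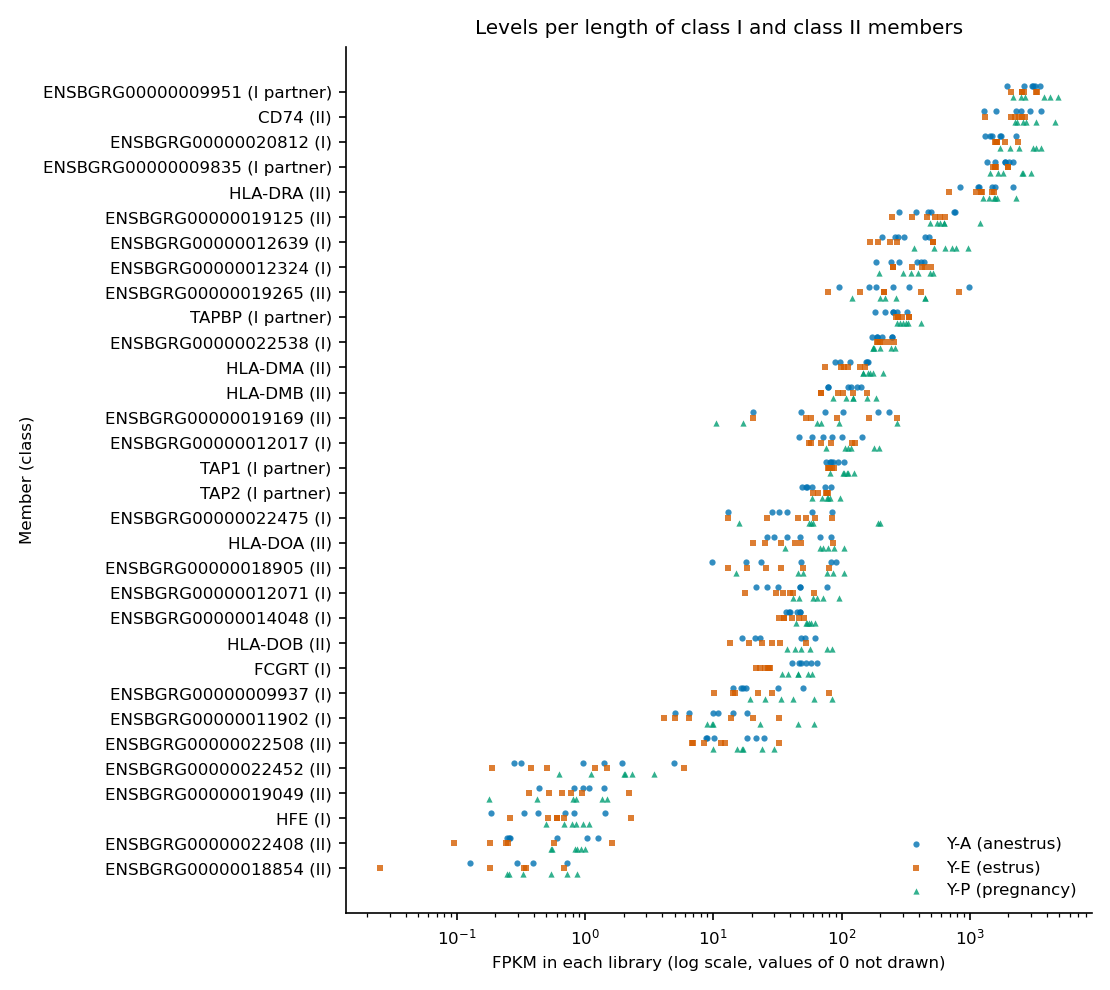
FPKM of each class I and class II chain, partner and CD74 in each of the 18 libraries (log axis, values of 0 not drawn), with 1 point a library and a marker for each stage. Beta-2-microglobulin, CD74, ENSBGRG00000020812 and HLA-DRA sit at the top, and HFE and ENSBGRG00000018854 at the bottom of the plot. FCGRT is lowest in Y-E, at 21.4 to 27.7 FPKM.

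Few members differed between the stages. A gene passed where edgeR's quasi-likelihood test gave an adjusted p under 0.05 over all 14508 genes tested, and all 97 members were tested. Between Y-E and Y-A 1 member passed and fell, FCGRT, against 0.0207% of all genes tested (3 genes). With the replicate number as a block over all 18 libraries, FCGRT was still the 1 member that passed, and 0.0965% of all genes did. That fit also blocks Y-P, whose numbers are not shown to pair with the other stages. In a block fit of only the Y-A and Y-E libraries, 0.202% of 13872 genes passed. The Y-E vs Y-A values given below for single members are those of the stage-only fit, which does not use the numbers. Between Y-P and Y-A 4 members passed, or 4.12%, against 5.83% of all genes tested. Of these, 3 rose, against 2.22% of all genes, and 1 fell, against 3.61%. Between Y-P and Y-E 6 members passed, or 6.19%, against 14.4% of all genes tested. All 6 rose, where 5.77% of all genes rose and 8.68% fell. Without Y-E replicate 6, 1 member fell between Y-E and Y-A, against 0.109% of the genes tested (0.157% in either direction and 0.0478% higher). Between Y-P and Y-A 3 members rose and 1 fell, against 2.25% and 3.81% (6.06% in either direction). Between Y-P and Y-E 4 members rose and 0 fell by edgeR, against 5.66% and 8.03% (13.7% in either direction).

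The study's own call also asks for a log2 fold change of at least 1 in either direction. FCGRT passed both thresholds between Y-E and Y-A, where 0.0138% of all genes did. In the comparisons with Y-P, edgeR put 0 members past both, against 1.43% of all genes for Y-A and 2.67% for Y-E. With no limit on the fold, 12 and 14 of the 97 members had an unadjusted p under 0.05. Among all 14508 genes tested, 3299 and 4246 did. DESeq2 put 1 member past both for Y-A (ENSBGRG00000002742, a T cell receptor beta segment) and 0 for Y-E. Without Y-E replicate 6 these counts stayed at 1, 0 and 0 members, against 0.123%, 1.56% and 2.58% of the genes tested. The groups did not overlap in 1, 2 and 0 members in the 3 comparisons, against 0.303%, 3.56% and 6.03% of all genes tested.

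The median log2 fold change of the members was −0.08, 0.21 and 0.30 in the 3 comparisons, against −0.01, 0.03 and 0.04 over all genes tested. Scaling moved this baseline. With library size alone, the median of all genes was 0.01, 0.19 and 0.18 in the same order. The genes passing in Y-P vs Y-A were then 1075 higher and 258 lower, where the trimmed mean gave 322 and 524. In Y-P vs Y-E they were 1795 higher and 758 lower, where it gave 837 and 1259. A higher level in Y-P below is relative to the trimmed-mean scaling.

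**Figure D2:**
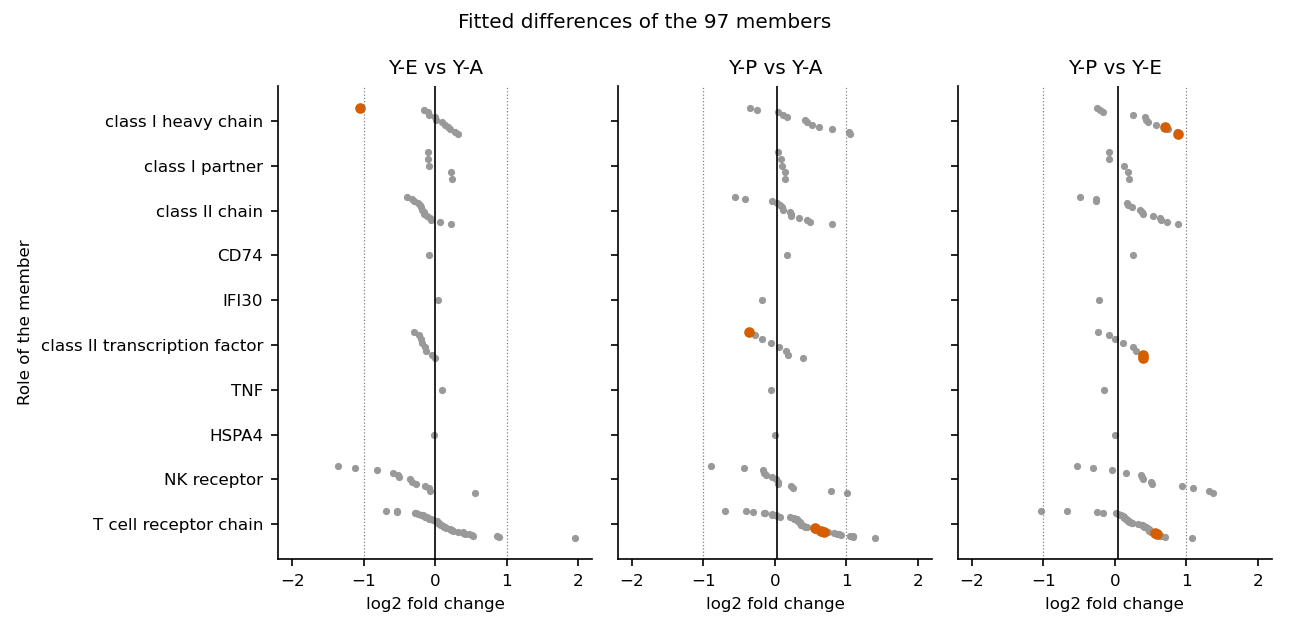
Fitted log2 fold change of each of the 97 members by role, with 1 panel a comparison (first stage minus second). Large points passed adjusted p under 0.05 (1, 4 and 6 members), the solid line is the median of all genes tested and the dotted lines mark a log2 fold change of 1 in either direction.

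Among the class I heavy chains, FCGRT (ENSBGRG00000024262) was the member with the clearest stage difference. Its levels in Y-A were 114 CPM at the lowest, 144 at the median and 162 at the highest. In Y-E they were 57.8, 67.2 and 76.1 CPM, and in Y-P 74.2, 111 and 152 CPM. Every Y-E library was thus below every Y-A library, and Y-P lay between and across both. The log2 fold change was −1.05 in Y-E vs Y-A (SE 0.14, adjusted p = 0.00454) and 0.70 in Y-P vs Y-E (SE 0.14, adjusted p = 0.00364). In Y-P vs Y-A it was −0.35 (SE 0.14, adjusted p = 0.15). Without Y-E replicate 6 the first 2 values were −1.07 (adjusted p = 0.00731) and 0.72 (adjusted p = 0.00618). FCGRT overlaps RCN3 on the same strand, so some of its reads may be shared. The summed level of 6 neutrophil markers was 3687 to 9321 CPM in Y-A, 4741 to 12558 in Y-E (7251 at the lowest without replicate 6) and 2685 to 5976 in Y-P. Of these markers 5 of 6 fell in Y-P vs Y-E. In Y-E vs Y-A 0 of 6 passed by edgeR, with 3 at an unadjusted p under 0.05, and without Y-E replicate 6 2 of 6 rose (median 0.93 on the log2 scale). Of 4 reticulocyte markers, 0 passed in Y-E vs Y-A by edgeR (median −1.70), with 2 at an unadjusted p under 0.05. Without Y-E replicate 6, 3 of 4 fell there (median −4.23). Their sums were then 439 to 10502 CPM in Y-A and 92.1 to 169.5 in Y-E. In Y-P vs Y-A, where FCGRT was at −0.35 and did not pass, 4 of 4 fell (median −6.27). In Y-P vs Y-E, where FCGRT rose, 3 of 4 fell (median −4.10), with sums of 39.0 to 122 CPM in Y-P. Without Y-E replicate 6, 1 of 4 fell in Y-P vs Y-E (median −1.46). The part of either cell type in the result was not tested.

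ENSBGRG00000012639, a class I heavy chain gene on chromosome 24 (7296567 to 7299023, minus strand), rose in Y-P vs Y-E. It lies inside ENSBGRG00000012324 (7243832 to 7299179), another heavy chain gene on the same strand, so that the division of reads between them is uncertain. Its levels were 133, 175 and 302 CPM in Y-A (lowest, median, highest), 109, 155 and 311 in Y-E and 218, 367 and 481 in Y-P. The stages overlapped, with the libraries numbered 1 and 4 the highest in Y-A and Y-E alike. The log2 fold change was 0.89 in Y-P vs Y-E (SE 0.28, adjusted p = 0.0401) and 0.79 in Y-P vs Y-A (SE 0.28, adjusted p = 0.0981). The latter passed with library size alone (0.97, adjusted p = 0.0432), DESeq2 (0.80, adjusted p = 0.0376) and limma on log2(FPKM + 1) (1.01, adjusted p = 0.0312). The call between Y-P and Y-E was lost when any 1 of Y-E replicates 2, 3, 5 and 6 or Y-P replicates 2, 4 and 5 was left out (adjusted p 0.0708 to 0.0945, log2 fold changes 0.77 to 0.84). The enclosing ENSBGRG00000012324 had log2 fold changes of −0.17 (adjusted p = 0.727) in Y-P vs Y-E and 0.04 (adjusted p = 0.947) in Y-P vs Y-A.

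The most abundant heavy chain, ENSBGRG00000020812 on chromosome 24 (6452727 to 6456810), did not pass. Its levels were 2694, 3129 and 4291 CPM in Y-A, 2855, 3271 and 4986 in Y-E and 2780.0, 4850.5 and 6709 in Y-P. The Y-P libraries were both among the lowest and the highest, and the spread within Y-P (SD 1592 CPM, n = 6) was larger than the difference between the stage means, 4740.0 CPM in Y-P and 3308 in Y-A. The log2 fold change in Y-P vs Y-A was 0.52 (SE 0.20, adjusted p = 0.134), and it passed with library size alone (0.67, adjusted p = 0.0394). The pseudogene ENSBGRG00000022475 lies on the other strand inside it; the library kit marks strand, but the setting used for counting was not given in the sources used here. Its log2 fold change of 1.05 in Y-P vs Y-A had an SE of 0.53 and an adjusted p of 0.246. Summed over the 9 heavy chains of the MHC, the level was 3707 to 5450 CPM in Y-A, 3880 to 6269 in Y-E and 3790 to 8290 in Y-P. In Y-P vs Y-A the median log2 fold change of these 9 genes was 0.52, and in Y-P vs Y-E it was 0.47. These genes are near copies of each other, and how reads that match several of them were divided cannot be seen in the counts.

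The class I partners showed no call by edgeR. The 2 genes with the beta-2-microglobulin entry had a summed level of 1515 to 2501 CPM in Y-A, 1553 to 2404 in Y-E and 1311 to 3418 in Y-P. TAP1 (ENSBGRG00000022060) had medians of 291, 263 and 313 CPM in Y-A, Y-E and Y-P, and TAP2 (ENSBGRG00000022189) of 199.7, 245 and 213 CPM. Tapasin (TAPBP, ENSBGRG00000017312) had medians of 442, 531 and 484 CPM. Of the 5 partners 0 had an unadjusted p under 0.05 in any comparison, and their log2 fold changes lay between −0.10 and 0.23. TAP1 passed in Y-P vs Y-E on log2(FPKM + 1) with limma (0.36, adjusted p = 0.0180). HFE had 0.672 to 5.23 CPM in Y-A, 0.917 to 7.72 in Y-E and 1.68 to 3.35 in Y-P. Its highest value was that of Y-E replicate 6, and its log2 fold change in Y-E vs Y-A was 0.32 with that library and −0.26 without it, with adjusted p of 0.999 and 0.950.

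**Figure D3:**
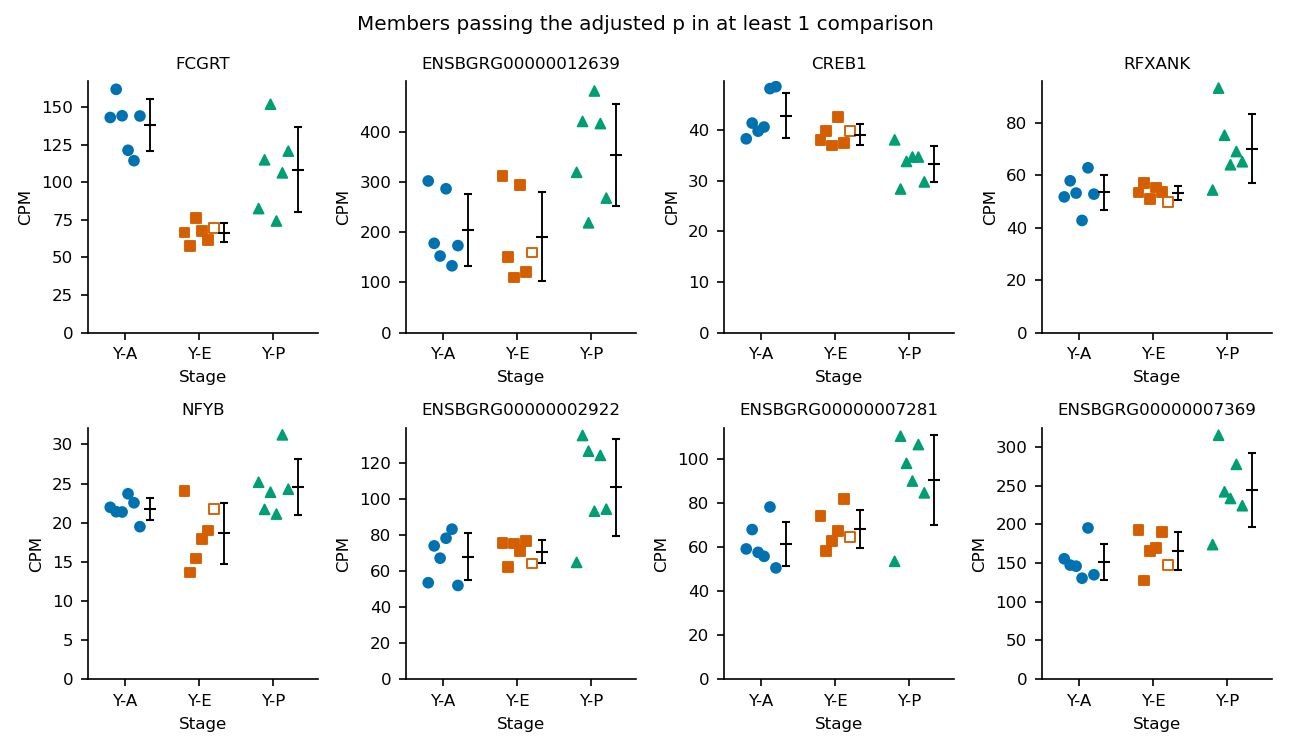
CPM of the 8 members that passed in at least 1 comparison, by stage, with 1 point a library and the mean and SD of each stage beside it (n = 6). The open square is Y-E replicate 6. Every Y-E library of FCGRT lies below every Y-A library, and every Y-P library of CREB1 lies below every Y-A library.

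Of the 14 class II chains, 0 passed in any comparison by edgeR with the stage-only design. The unadjusted p was under 0.05 for 0, 0 and 2 of them in the 3 comparisons. Among all 14508 genes tested it was so for 900, 3299 and 4246, so the 2 are not read as an excess. The 2 chains were HLA-DOB and HLA-DMA. HLA-DOB (ENSBGRG00000022347), the beta chain of HLA-DO, had 30.1, 59.8 and 105 CPM in Y-A, 23.4, 46.0 and 83.8 in Y-E and 52.1, 76.6 and 141 in Y-P. Its log2 fold change in Y-P vs Y-E was 0.88 (SE 0.34, adjusted p = 0.0889), and it passed with DESeq2 (0.88, adjusted p = 0.0393) and without Y-E replicate 4 (1.11, adjusted p = 0.0352). HLA-DMA (ENSBGRG00000021851), the alpha chain of HLA-DM, was at 0.39 in Y-P vs Y-E on the log2 scale (SE 0.17, adjusted p = 0.117), and passed with library size alone (0.53, adjusted p = 0.0452). Its partner HLA-DMB had 0.18 (SE 0.21, adjusted p = 0.618).

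HLA-DRA (ENSBGRG00000018800) had 1307, 2022 and 3169 CPM in Y-A, 1058, 1857 and 2134 in Y-E and 1547, 1978 and 3308 in Y-P. The stages overlapped almost entirely, and the log2 fold change in Y-P vs Y-E was 0.24 (SE 0.21, adjusted p = 0.478). CD74 (ENSBGRG00000022423) had 2602, 4711 and 6702 CPM in Y-A, 2549, 4546 and 5226 in Y-E and 3552, 4339.8 and 8538 in Y-P. Its log2 fold changes were −0.09, 0.16 and 0.25 in the 3 comparisons, with SEs of 0.24, 0.25 and 0.25 and adjusted p of 0.999, 0.747 and 0.537. IFI30, which reduces disulfide bonds of antigens for class II loading, had log2 fold changes of 0.04, −0.18 and −0.23 in the same order.

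Over the 14 class II chains the median log2 fold change was −0.17 in Y-E vs Y-A, 0.16 in Y-P vs Y-A and 0.36 in Y-P vs Y-E, with a range of −0.49 to 0.88 in the last. On the side of HLA-DRA the medians were −0.15, 0.03 and 0.24, and on the side of HLA-DM and HLA-DO they were −0.19, 0.20 and 0.39. Summed over the 14, the level was 2237 to 6201 CPM in Y-A, 1838 to 4600 in Y-E and 2808 to 6265 in Y-P. The libraries with the highest class II sum of their stage were Y-A replicate 4, Y-E replicate 4 and Y-P replicate 3. The same 3 libraries had the highest summed level of 7 B cell markers, 1683, 1389 and 1884 CPM. They also had the highest summed level of 7 dendritic cell markers, 174, 177 and 197 CPM. The lowest class II sums were in Y-A replicate 5, Y-E replicate 5 and Y-P replicate 4. The lowest B cell sums were in the libraries numbered 6. The lowest dendritic cell sums were in the libraries numbered 5 (131, 136 and 142 CPM). Of the B cell markers 0 of 7 passed in any comparison by edgeR, with medians of −0.19, 0.37 and 0.55 on the log2 scale, and their part in the class II levels was not tested. The 6 monocyte markers had medians of 0.13, −0.36 and −0.53 on the log2 scale, with 0 of 6 above 0 in both comparisons with Y-P. Their summed level was 861 to 1662 CPM in Y-A, 795 to 2007 in Y-E and 524 to 1443 in Y-P. Of them 1 fell in Y-P vs Y-E (CD68, −0.79, adjusted p = 0.0144). Of 7 dendritic cell markers IRF8 rose there (0.42, adjusted p = 0.040) and XCR1 fell (−1.13, adjusted p = 0.0128). The part of these cell types was not tested either. CLEC9A, a marker of the dendritic cells that cross-present, was at 0 to 0.444 CPM throughout.

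Of the 8 factors of the class II promoter, 1 passed in Y-P vs Y-A (12.5%, against 5.83% of all genes tested). In Y-P vs Y-E 2 passed (25%, against 14.4%), and 1 without Y-E replicate 6 (12.5%, against 13.7%). With so few genes, these shares are not read as an excess. CIITA (ENSBGRG00000026606), the coactivator that switches class II genes on, did not pass: its levels were 100.9, 263 and 287 CPM in Y-A, 103, 209 and 398 in Y-E and 184, 257 and 280 in Y-P, with log2 fold changes of −0.05, 0.06 and 0.11. RFX5, RFXAP and RFXANK form the complex that binds the X box of class II promoters. RFXANK (ENSBGRG00000001549) had 42.7, 53.0 and 62.8 CPM in Y-A, 49.8, 53.4 and 57.0 in Y-E and 54.3, 67.1 and 93.2 in Y-P. It rose in Y-P vs Y-E (0.40, SE 0.12, adjusted p = 0.0287), with all but 1 Y-P library above every Y-E library, and in Y-P vs Y-A the value was 0.39 (SE 0.12, adjusted p = 0.0528). This second value passed with library size alone (0.55, adjusted p = 0.0149), DESeq2 (0.39, adjusted p = 0.0219), limma on log2(FPKM + 1) (0.56, adjusted p = 0.0042) and without Y-P replicate 1 (0.45, adjusted p = 0.0232). The call in Y-P vs Y-E was lost without any 1 of Y-E replicates 1, 3, 5 and 6 or Y-P replicates 2 and 3 (adjusted p 0.0510 to 0.0647, log2 fold changes 0.30 to 0.40). RFX5 and RFXAP were at 0.25 and 0.00 on the log2 scale in Y-P vs Y-E, with adjusted p of 0.338 and 0.991.

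NFYA, NFYB and NFYC form the trimer that binds the CCAAT box. NFYB (ENSBGRG00000019506) had 19.5, 21.7 and 23.7 CPM in Y-A, 13.6, 18.5 and 24.02 in Y-E and 21.1, 24.1 and 31.2 in Y-P. The stages overlapped, and the rise in Y-P vs Y-E was at the edge of the threshold (0.40, SE 0.13, adjusted p = 0.0497). The call held in 4 of the 18 fits that leave out 1 library, among them the fit without Y-E replicate 6 (0.45, adjusted p = 0.040), and in the other 14 the adjusted p was 0.0544 to 0.123. Fitting only these 2 stages (adjusted p = 0.0887) or using no low-count filter (adjusted p = 0.0716) also ended it. NFYC was at 0.30 on the log2 scale in Y-P vs Y-E, with an adjusted p of 0.114. The gene with the NFYA entry, ENSBGRG00000023148, had 27.6 to 33.9 CPM in Y-A and 23.6 to 27.5 in Y-P, which did not overlap, yet its log2 fold change of −0.28 did not pass by edgeR (SE 0.10, adjusted p = 0.0868), and passed with DESeq2 (adjusted p = 0.0357).

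CREB1 (ENSBGRG00000007627), a factor that binds cyclic AMP response elements and the X2 box, fell in Y-P vs Y-A. It had 38.3, 41.0 and 48.6 CPM in Y-A, 37.0, 38.9 and 42.5 in Y-E and 28.4, 34.2 and 38.1 in Y-P. Every Y-P library was below every Y-A library, though by a narrow margin. The log2 fold change was −0.37 (SE 0.10, adjusted p = 0.0320) in Y-P vs Y-A and −0.24 (SE 0.10, adjusted p = 0.103) in Y-P vs Y-E. The value shrank to −0.20 with library size alone (adjusted p = 0.254) and to −0.16 on log2(FPKM + 1) with limma (adjusted p = 0.342). Fitting only these 2 stages (adjusted p = 0.0625) or leaving out the low-count filter (adjusted p = 0.0512) also ended the call. The call was also lost without Y-A replicate 5 or Y-P replicates 2, 4 or 6 (adjusted p 0.0514 to 0.0730, log2 fold changes −0.38 to −0.32). CREB1 overlaps METTL21A on the other strand. Beside this comparison, all 4 reticulocyte markers fell, with a median of −6.27 on the log2 scale and summed levels of 439 to 10502 CPM in Y-A and 39.0 to 122 in Y-P, and their part in it was not tested.

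T cell receptor segments are listed in the pathway because the receptor reads the presented peptide. Of the 41, 20 carried the beta chain entry and 21 the alpha chain entry. In Y-P vs Y-A 3 beta genes, neighbours on chromosome 4 (785262 to 820421), rose, and in Y-P vs Y-E 2 of the same 3 rose. ENSBGRG00000007369 had 130, 147 and 196 CPM in Y-A, 127, 168 and 193 in Y-E and 174, 238 and 315 in Y-P. Its log2 fold change was 0.69 in Y-P vs Y-A (SE 0.14, adjusted p = 0.00928) and 0.56 in Y-P vs Y-E (SE 0.14, adjusted p = 0.0118), and both calls held in all 18 fits that leave out 1 library. Y-P replicate 1 was its lowest Y-P library, inside the range of the other stages.

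ENSBGRG00000002922 had 52.1, 70.7 and 83.4 CPM in Y-A, 62.3, 73.4 and 76.9 in Y-E and 64.9, 110 and 136 in Y-P. It rose in Y-P vs Y-A (0.65, SE 0.16, adjusted p = 0.0258) and in Y-P vs Y-E (0.59, SE 0.16, adjusted p = 0.0189). ENSBGRG00000007281 rose in Y-P vs Y-A (0.56, SE 0.15, adjusted p = 0.0359) and had 0.41 in Y-P vs Y-E (SE 0.15, adjusted p = 0.0727). Against Y-A, the call of ENSBGRG00000002922 was lost without any 1 of Y-A replicates 1 and 6 or Y-P replicates 2, 3 and 5 (adjusted p 0.0518 to 0.0730, log2 fold changes 0.56 to 0.60). That of ENSBGRG00000007281 was lost without any 1 of Y-A replicates 1, 3, 4 and 6, Y-E replicate 1 or Y-P replicates 2, 3, 4 and 5 (adjusted p 0.0568 to 0.0986, log2 fold changes 0.48 to 0.56). In a fit of only these 2 stages neither passed (adjusted p = 0.0821 and 0.0941). As neighbours of 1 gene family they may share reads.

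Over the 20 beta genes the median log2 fold change was 0.08 in Y-E vs Y-A, 0.50 in Y-P vs Y-A and 0.48 in Y-P vs Y-E. Over the 21 alpha genes it was 0.04, 0.36 and 0.18, and by edgeR 0 of them passed in any comparison, with 0, 1 and 2 at an unadjusted p under 0.05. The summed level of the beta genes was 259.6 to 402 CPM in Y-A, 277 to 386 in Y-E and 319 to 605 in Y-P. Of 4 T cell markers measured (CD3D, CD3G, CD5 and LAT), 3 rose in both comparisons with Y-P. CD3G, a chain of the receptor complex, had 0.73 in Y-P vs Y-A (adjusted p = 0.0139) and 0.88 in Y-P vs Y-E (adjusted p = 0.00173) on the log2 scale. Their summed level was 498 to 606 CPM in Y-A, 488 to 618 in Y-E and 571 to 1091 in Y-P. Y-P replicate 1 was the lowest of Y-P, as for the beta genes. It was also the lowest of Y-P for the alpha genes (431 CPM), the class I heavy chains of the MHC (3790 CPM) and beta-2-microglobulin (1311 CPM). For the class II chains the lowest was Y-P replicate 4. The part of the T cell markers in the rise of the segments was not tested.

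The 13 natural killer cell receptor genes, which read class I molecules on other cells, held 7 with entries of lectin-like receptors and 6 with killer immunoglobulin-like receptor entries. By edgeR 0 passed, and 0 had an unadjusted p under 0.05, in any comparison. Their summed level was 26.1 to 112 CPM in Y-A, 19.0 to 72.7 in Y-E and 40.6 to 79.1 in Y-P, and the median log2 fold changes were −0.35, 0.01 and 0.39. TNF, a cytokine that raises class I and class II levels, had medians of 10.1, 9.53 and 9.29 CPM. HSPA4, a chaperone of the heat shock protein 110 family, had medians of 139.8, 139 and 142 CPM. Both had log2 fold changes between −0.15 and 0.09.

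The chains of the MHC differed far more between libraries of 1 stage than between stages. Over the 11 of 14 class II chains with a mean of at least 100 counts a library, the highest library of a stage was at the median 2.98 times the lowest in Y-A, 3.79 times in Y-E and 2.92 times in Y-P. ENSBGRG00000019169, a class II chain gene on chromosome 24 (9078875 to 9083304), was among the most variable. In Y-A replicates 1 to 6 it had 119, 214, 156, 415, 46.9 and 533 CPM. In Y-E replicates 1 to 6 it had 116, 207, 136, 335, 46.3 and 573 CPM. Number for number, these 2 stages were alike, with the same libraries high (6 and 4) and low (5), and no same-numbered pair differed by more than 1.24 times. In Y-P replicates 1 to 6 it had 123, 35.9, 205, 116, 20.2 and 505 CPM. The numbers 1 and 6 again held like levels, whereas Y-P replicate 2 was 5.95 times below Y-A replicate 2.

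ENSBGRG00000019265, described in the table as DQ beta 1, showed the same arrangement. In Y-A replicates 1 to 6 it had 203, 89.8, 237, 961, 171 and 343 CPM, and in Y-E 212, 78.9, 229, 748, 140.4 and 393 CPM. In Y-P it had 175, 249.8, 426, 97.4, 174 and 373 CPM. Number 4 was the highest library in Y-A and Y-E and the lowest in Y-P, where it was 9.87 times below Y-A replicate 4. Number 2 was the lowest in Y-A and Y-E and above the median in Y-P.

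**Figure D4:**
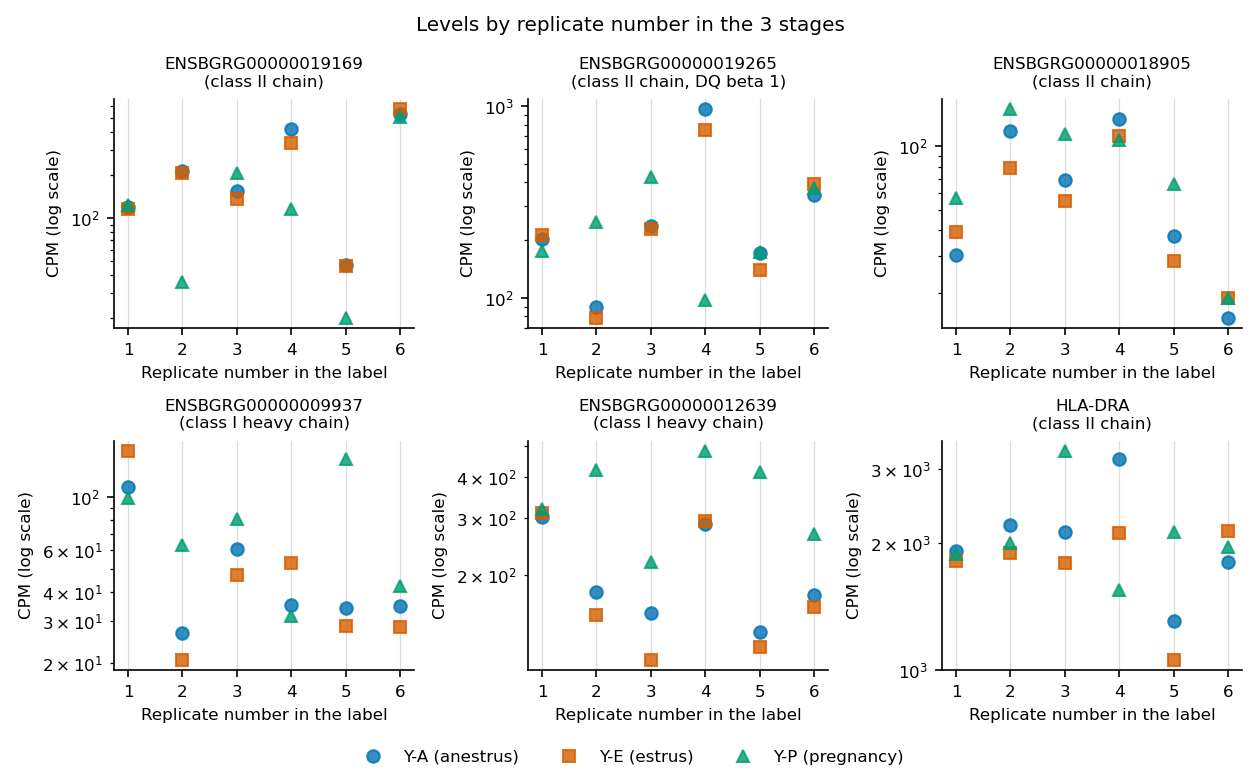
CPM (log axis) of 5 MHC chain genes that vary between libraries and of HLA-DRA, by the replicate number in the label, with a marker for each stage. Y-A and Y-E markers nearly coincide at each number for ENSBGRG00000019169 and ENSBGRG00000019265, whereas Y-P departs at numbers 2 and 4.

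This likeness was described over the 23 MHC chain genes (9 class I heavy chains and 14 class II chains), a set chosen after the values were seen. For each library, the deviations of log2(CPM + 1) from the stage mean were correlated with those of the libraries of another stage. The points are genes of 1 region that share reads, so the correlations are a description. In Y-E vs Y-A the same-numbered libraries had correlations of 0.855 to 0.935, and in 6 of 6 the same number was the nearest. Over all genes tested the same-number correlations were 0.106 to 0.687, and the same number was the best in 5 of 6. In Y-P vs Y-A the MHC correlations were −0.0986 to 0.942, with the same number nearest in 3 of 6 (1, 3 and 6). In Y-P vs Y-E they were 0.112 to 0.896, again with 3 of 6. Y-P replicate 4 was nearest to the libraries numbered 2 (correlations 0.719 with Y-A and 0.663 with Y-E) and Y-P replicate 2 to those numbered 3 (0.500 and 0.447). By correlation the classes differed here. Over the 9 class I genes Y-P replicate 2 correlated best with its own number (0.700 and 0.704). Over the 14 class II chains Y-P replicate 5 did (0.614 and 0.603). By the mean gap in log2(CPM + 1), each of these was instead nearest to the libraries numbered 3. Over the class II chains Y-P replicate 3 had own-number correlations of 0.0428 with Y-A and 0.431 with Y-E. It correlated best with Y-A replicate 4 and Y-E replicate 6. By the mean gap, the same number was nearest for class II in 1 of 6 (number 6) in both comparisons with Y-P. For class I it was nearest in 3 of 6 with Y-A and 4 of 6 with Y-E. Over all genes tested, number 2 was best with its own number in Y-P vs Y-A and number 4 in Y-P vs Y-E.

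All 9 class I and all 14 class II chain genes had a smaller median gap between same-numbered than between other-numbered libraries in Y-E vs Y-A, where 63.1% of all genes tested did. In Y-P vs Y-A 8 of 9 and 9 of 14 did, against 55.1% of all genes. The T cell receptor segments showed 36 of 41 in Y-E vs Y-A and 27 of 41 in Y-P vs Y-A. The factors of the class II promoter, whose highest library of a stage was at the median 1.47 times the lowest, and for CIITA up to 3.86 times, showed 6 of 8 and 3 of 8. Whether the same numbers mark the same cows in Y-P cannot be told from the labels, and the source of the differences at numbers 2, 4 and 5 was not tested.

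**Figure D5:**
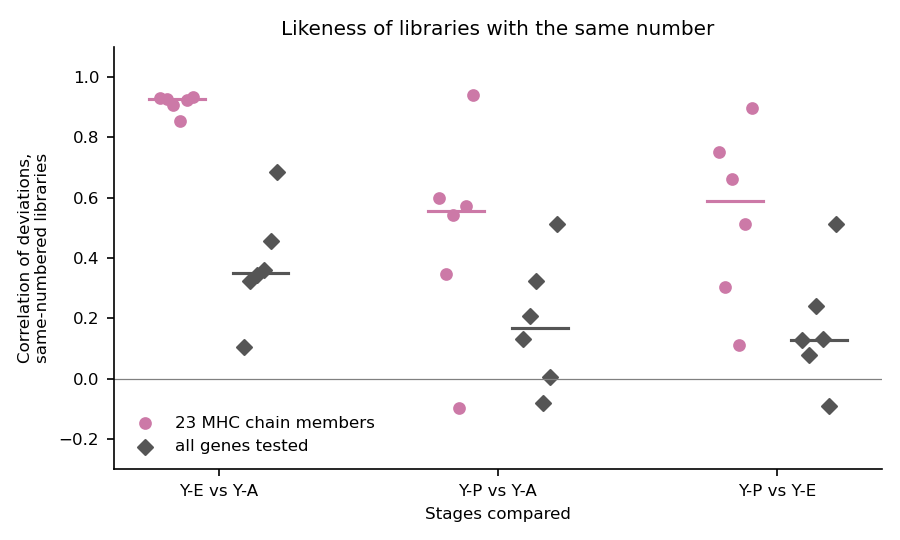
Correlation of deviations from the stage mean between same-numbered libraries of 2 stages, 1 point a number, for the 23 MHC chain genes and for all genes tested, with the median as a line. In Y-E vs Y-A the MHC points lie between 0.855 and 0.935, and in Y-P vs Y-A they spread from −0.0986 to 0.942.

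Of the 23 pathway genes outside the members that met the count minimum, among them chaperones, cathepsins and proteasome activators, 0 passed by edgeR in Y-E vs Y-A (0 at an unadjusted p under 0.05), 1 fell in Y-P vs Y-A (HSPA6, −1.57, adjusted p = 0.046, and 0.0508 without Y-E replicate 6) and 0 passed in Y-P vs Y-E (4 at an unadjusted p under 0.05), with medians of −0.06, 0.04 and 0.08 on the log2 scale. HSPA6 is a heat shock protein induced by stress. CD4, the coreceptor for class II, had 0.43 (adjusted p = 0.0642) in Y-P vs Y-A. The loading chaperones CALR, CANX and PDIA3 had log2 fold changes between −0.06 and 0.21.

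Of 25 other genes of presentation that are not in the members, 21 were found. MARCHF8, a ubiquitin ligase that removes class II and CD86 from the surface, fell in Y-P vs Y-A (−0.65, adjusted p = 0.0173) and in Y-P vs Y-E (−0.75, adjusted p = 0.00256). Its levels were 41.0 to 72.2 CPM in Y-A, 44.8 to 63.5 in Y-E and 25.1 to 37.1 in Y-P, so Y-P lay below both other stages in every library. Between Y-P and Y-E, the myeloid factor SPI1 fell (−1.16, adjusted p = 0.00080) and so did IRF1, a factor for class I genes (−0.61, adjusted p = 0.0393), while IRF8, also a dendritic cell marker above, rose (0.42, adjusted p = 0.040, and 0.0714 without Y-E replicate 6). In Y-E vs Y-A 0 of the 21 passed by edgeR, with 2 at an unadjusted p under 0.05. Without Y-E replicate 6, 1 of the 21 rose in Y-E vs Y-A (SPI1, adjusted p = 0.0497), and 0 rose and 3 fell in Y-P vs Y-E. PSMB8, an immunoproteasome subunit, had log2 fold changes of 0.04, 0.16 and 0.13 in the 3 comparisons.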

How the data were processed

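The authors trimmed reads with cutadapt (1.9), aligned them to the Bos grunniens genome (v101) with HISAT2 (2.2.1) and estimated levels with StringTie (2.1.6), per the labels and the methods. They deposited 1 table with counts and FPKM of 20607 genes in 18 libraries. The read counter, its strand setting and its treatment of reads matching several genes are not given in the sources used here. The deposited counts were tested here with edgeR (4.0.16): trimmed-mean scaling, filterByExpr, a stage-only design over all 18 libraries and the quasi-likelihood test, with Benjamini-Hochberg adjustment over 14508 genes. Alternatives used DESeq2 (1.42.0) and limma (3.58.1) on log2(FPKM + 1) and log2(FPKM + 0.1). The members and lists were chosen with earlier results of these data known. Named were all class I, class II, CD74 and class II promoter factor members, and every other member that passed. Same-numbered Y-A and Y-E libraries deviated together over all genes tested (correlations 0.106 to 0.687, all over 0.1), so the numbers were taken to pair these stages. Number 1, at 0.106, was not best with its own number. The stage-only fit leaves this pairing out. Its SEs in Y-E vs Y-A therefore include differences between libraries that same-numbered pairs share. No sequences are shown, since none were used here.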

Additional observations from a re-analysis of the deposited data

Results flagged for a closer look

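Dixon's test was applied to each of the 43 named members within each stage of 6 libraries, 129 groups in all. It asks whether the highest or lowest library stands apart, from the gap to the nearest library divided by the stage's range, which is the first value given below. It marked 12 groups. The nominal rate of 1 in 20 holds for independent, normally distributed values. Many of these groups are neighbouring genes that may share reads, so the 12 are not read as an excess over chance. Of these, 5 were a class II chain with its highest value in a library numbered 4. They were ENSBGRG00000019265 in Y-A (0.709, 961 CPM against at most 343 in the others), ENSBGRG00000022452 in Y-A (0.658) and in Y-E (0.769, 14.1 CPM against at most 3.64), ENSBGRG00000022408 in Y-E (0.644) and ENSBGRG00000022508 in Y-E (0.747, 59.1 CPM against at most 24.5). Y-P replicate 3 was the highest for HLA-DRA (0.668, 3308 CPM against at most 2131) and ENSBGRG00000019125 (0.837, 1393 CPM against at most 627). Y-E replicate 5 was the lowest for HLA-DRA (0.690, 1058 CPM against at least 1800).

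In class I, Y-E replicate 1 was the highest for ENSBGRG00000009937 (0.764, 156 CPM against at most 52.8), and Y-P replicate 4 was the lowest for ENSBGRG00000014048 (0.723, 212 CPM against at least 277). Y-P replicate 5 was the highest for TAPBP (0.760, 661 CPM against at most 509). HFE was highest in Y-E replicate 6 (0.765, 7.72 CPM against at most 2.52), the library with the high share of hemoglobin counts. The cause of these values was not tested.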

How the results depend on the processing

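FCGRT was the 1 member that passed in Y-E vs Y-A, alone and past both thresholds, under every alternative, and no called value changed sign. For Y-P vs Y-A, where 4 members passed, the count was 8 with library size only, 8 with DESeq2, 1 with only these 2 stages, 12 and 9 with limma on log2(FPKM + 1) and log2(FPKM + 0.1), and 1 to 6 with a library left out. The share of all genes passing there moved as well, from 5.83% to 9.19% with library size only and 10.3% with DESeq2. It was 3.45% with only these 2 stages and 14.6% and 13.3% in the limma fits. Past both thresholds it was 1, 1, 1 and 2 with library size only, DESeq2 and the 2 limma fits, against 0. For Y-P vs Y-E, where 6 members passed, the count was 12 with library size only, 15 in both limma fits and 3 to 7 with a library left out. Of all genes, 17.6% passed there with library size only, against 14.4% with the trimmed mean. Past both it was 1 with library size only, 2 in both limma fits and 0 to 2 with a library left out. With library size only, 261 of 14508 genes tested passed both for Y-A and 333 for Y-E. For the limma fits of Y-P vs Y-E the share of all genes is not given here, so their counts are not read against it. With the replicate block, which changed no call of a named member between Y-E and Y-A, 7 members passed in Y-P vs Y-A, with ENSBGRG00000011902, ENSBGRG00000012639 and RFXANK added, and 10 in Y-P vs Y-E, with ENSBGRG00000011902 and the class II chains ENSBGRG00000018905, HLA-DOA and HLA-DOB added (adjusted p 0.0470, 0.0224, 0.0205 and 0.0084). With the block, 8.84% of all genes passed in Y-P vs Y-A and 17.98% in Y-P vs Y-E. The larger member counts in these settings are therefore not read as particular to the members. The numbers are not shown to pair Y-P with the other stages (same-number correlations −0.0802 to 0.511 with Y-A and −0.0892 to 0.514 with Y-E over all genes tested, own number best in 3 of 6 each). Depth limits the rarest members, with SEs of up to 0.93 among the class II chains and 1.37 among all members on the log2 scale.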
